A study of Homo sapiens with 8 samples.

Results

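The enzymes that make, recycle and divert nicotinamide adenine dinucleotide (NAD) were followed in BT549, a human triple-negative breast cancer cell line, in 4 cultures held in suspension and 4 cultures attached to ordinary tissue culture plastic. The suspended cells had spent 24 h on poly-HEMA, a coating that cells cannot grip. The attached cells are given as 24 h by one label field and as 48 h by another, so that with the longer time attachment and culture time cannot be told apart. Both groups grew in RPMI medium with 10% serum and insulin, and neither carried a genetic change or drug, as far as the labels say. BT549 is a single line, so the cultures replicate the culture conditions and not the tumour type. The 10 members, NAMPT, NAPRT, NADSYN1, NMNAT1, NMNAT2, NMNAT3, NMRK1, QPRT, NNMT and NADK, were taken as a pathway, by gene symbol. All 10 were measured, by 11 probe sets, among 18417 genes read by 19460 probe sets that carry a single symbol.

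NAD carries electrons in catabolism and is also consumed as a substrate by sirtuins, PARP enzymes and the CD38 family, which release nicotinamide. Cells rebuild it by salvage of nicotinamide, by phosphorylation of nicotinamide riboside, from nicotinic acid (the Preiss-Handler route), or from tryptophan by way of quinolinate. The routes meet at the NMNAT enzymes, which attach the adenylate part. NNMT works against salvage by methylating nicotinamide with S-adenosylmethionine as the methyl donor, and its expression is known to be high in many mesenchymal-like tumour cells.

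The line's own markers were read first. Vimentin (VIM) averaged 11.66 in suspended and 11.73 in attached cells on the log2 signal scale, above 99.6% of tested genes, while the oestrogen receptor gene ESR1 (5.11 and 5.04) and the progesterone receptor gene PGR (4.31 and 4.19) lay above 21.0% and 7.32%. The third receptor gene of the triple-negative label, ERBB2, had 7.53 and 7.48, above 71.7% of genes. Of the other mesenchymal markers, ZEB1 rose (8.84 and 8.57, limma adjusted p = 0.0024), CDH2 fell (8.56 and 8.94, limma adjusted p = 0.000104), and FN1 had 10.9 and 10.8. Epithelial markers were mixed, with CDH1 (4.26 and 4.19) and EPCAM (5.35 and 5.47) above 6.95% and 27.7% of genes, but the keratin genes KRT8 (6.37 and 6.42) and KRT18 (8.13 and 8.16) above 49.7% and 81.8%. The leukocyte marker PTPRC had 3.94 in both groups. Of 9 measured markers of leukocytes, endothelium and adipocytes, whose means ran from 3.94 to 5.90 in suspended and from 3.94 to 5.76 in attached cells, 1 rose, the monocyte gene CD14 (5.72 and 5.50, limma adjusted p = 0.0467). Its part in the NAD gene results was not tested. Array medians lay between 6.02 and 6.07, and arrays correlated at 0.993 to 0.996 within suspension, 0.995 to 0.996 within attachment and 0.987 to 0.994 between the groups. With arrays there is no sequencing depth to give, and precision is limited by how many there are.

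NAMPT, the enzyme that starts nicotinamide salvage and sets its pace, rose the most of the 10 genes. The rise in suspension was 1.94-fold by its brighter probe set and 1.86-fold by the other. NNMT, the methyltransferase that removes nicotinamide, rose 1.27-fold. Smaller rises passed the test for NMNAT2, the Golgi and cytosolic adenylyltransferase (1.20-fold), and for QPRT, which brings tryptophan-derived quinolinate into NAD synthesis (1.14-fold). No member fell past the threshold, an adjusted p of 0.05 in limma with the Benjamini-Hochberg method over all genes. The 4 rises of 10 past that threshold stand beside a background of 10.4% of tested genes that rose, 10.2% that fell and 20.6% called in either direction. Calls were more frequent among brighter genes, and most members are bright. With only genes above the median of gene means tested, 3870 of 9208 were called, 1815 higher and 2055 lower. Of the 7 members in that fit 5 were called, 4 higher and 1 lower. The members were also chosen with earlier results of these data known. At an unadjusted limma p under 0.05, 5 members were higher and 1, NADSYN1, was lower. The share of all tested genes at the unadjusted threshold is not given here, so this count has no background beside it. Without attached replicate 4 the rises numbered 2, NAMPT and NNMT. The groups did not overlap for 6 members, 5 higher and 1 lower in suspension, against 24.8% of all tested genes. The median log2 difference, suspended minus attached, was 0.151 over the members and 0.024 over all genes, and 8 of 10 members and 57.5% of all genes were higher on average. Signals come from RNA of whole cultures, so a change in every cell and a change in some of the cells cannot be told apart.

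**Figure D1:**
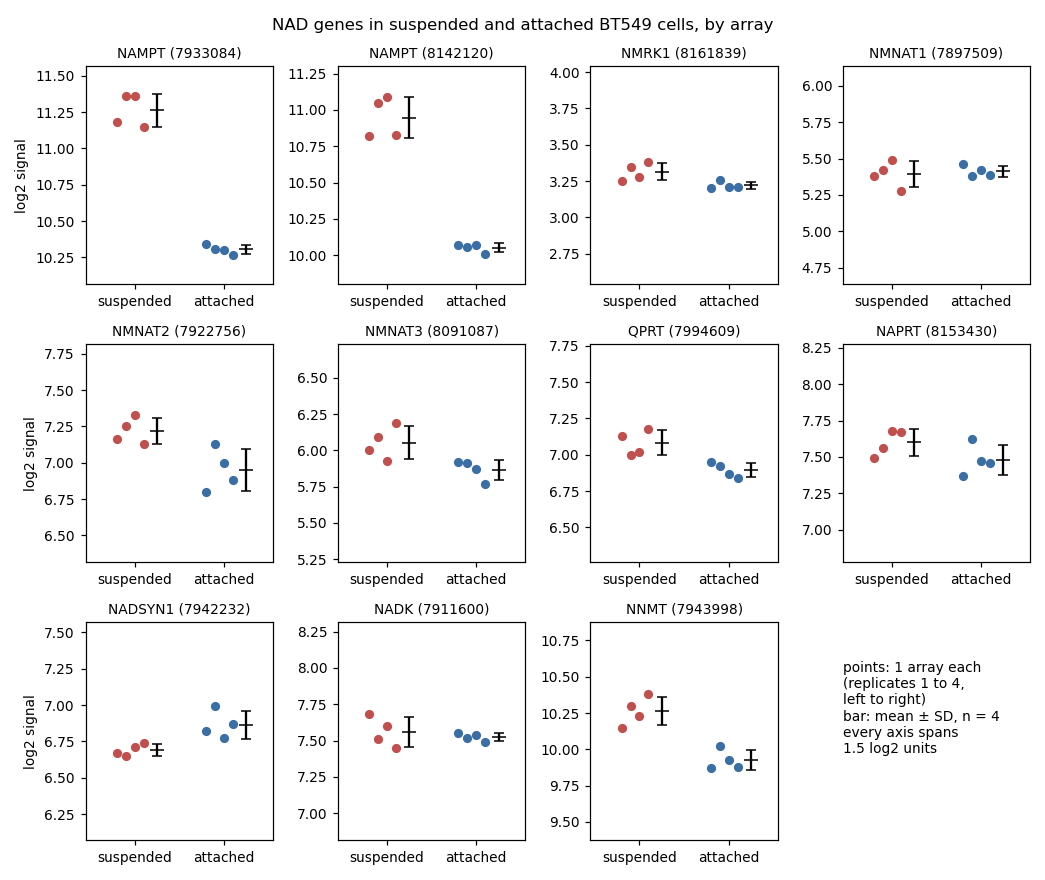
Log2 signal of each of the 11 probe sets of the NAD genes in every array; red points are the 4 suspended and blue points the 4 attached cultures, and black bars give mean ± SD (n = 4). Every axis spans the same 1.5 log2 units, so that the gap of 0.815 between the lowest suspended and the highest attached NAMPT value can be set against the overlapping groups of NMNAT1, NADK, NAPRT and NMRK1.

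NAMPT, which makes nicotinamide mononucleotide from nicotinamide, had log2 signals of 11.18, 11.36, 11.36 and 11.15 in the suspended arrays, against 10.34, 10.31, 10.30 and 10.27 in the attached arrays. Every suspended value lay above every attached one, by a gap of 0.815, and the attached values lay closer together (SD 0.027) than the suspended ones (SD 0.112). Suspended minus attached, the means differed by 0.958 log2 units (SE 0.058, n = 4 each, limma adjusted p = 7.55e-07). In size it was the 78th of 18417 genes and among rises the 52nd, with 0.418% of genes further from 0. A two-sided exact permutation test over the arrays gave p = 0.0286, the smallest that 4 against 4 can give.

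NAMPT was read by a pair of probe sets, and the value above is that of the brighter (7933084). The other (8142120) had log2 signals of 10.82, 11.05, 11.09 and 10.83 in suspension, against 10.07, 10.06, 10.07 and 10.01 in attachment. Its means differed by 0.895 log2 units (SE 0.067, n = 4 each, limma adjusted p = 4.72e-06 over all probe sets with 1 symbol), again with no overlap. Both probe sets placed suspended replicates 2 and 3 above suspended replicates 1 and 4. Their deviations from the group means ran in parallel (r = 0.976 over 8 arrays, which share the RNA and the array). The RefSeq gene table lists 3 NAMPT pseudogenes, among them NAMPTP1 on chromosome 10 (36521736 to 36524236, GRCh38.p14). The gene itself lies on chromosome 7 (106248298 to 106285888). Probe set numbers of the other members run by chromosome in the order 1, 11, 16, 3, 8, 9. In that order 7933084 falls between chromosomes 1 and 11, where 10 would come. The number 8142120 falls between chromosomes 3 and 8, where 7 would come. The brighter probe set may therefore be placed at NAMPTP1 and not at the gene. Probe sequences were not used here, so signal from such copies cannot be told apart from that of the gene. Rank, likeness and differences from other members use the brighter probe set.

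The stretch of 250 bases just before a NAMPT start site is shown because NAMPT rose furthest, together with the same stretch for NMNAT2 and QPRT, the other called members with an entry in the RefSeq promoter table (GRCh38.p14; 7 of the 10 members matched). The NAMPT stretch is chr7:106284984-106285233 on the minus strand, that of NMNAT2 chr1:183418381-183418630 on the minus strand, and that of QPRT chr16:29678758-29679007 on the plus strand. They are written 5′ to 3′ along the gene. Capitals mark matches, on either strand, to the E-box CACGTG, the aryl hydrocarbon receptor core GCGTG, the AP-1 motif TGANTCA or the antioxidant response motif TGACNNNGC.
NAMPT: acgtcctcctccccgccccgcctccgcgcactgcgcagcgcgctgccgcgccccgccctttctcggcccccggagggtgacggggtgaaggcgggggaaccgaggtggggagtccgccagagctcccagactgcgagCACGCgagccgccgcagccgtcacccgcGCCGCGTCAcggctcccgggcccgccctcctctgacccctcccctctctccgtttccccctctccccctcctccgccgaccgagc
NMNAT2: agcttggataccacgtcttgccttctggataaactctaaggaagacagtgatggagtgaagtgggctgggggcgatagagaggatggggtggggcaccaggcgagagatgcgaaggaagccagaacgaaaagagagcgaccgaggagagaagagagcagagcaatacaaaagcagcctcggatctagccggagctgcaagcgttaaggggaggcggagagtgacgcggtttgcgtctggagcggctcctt
QPRT: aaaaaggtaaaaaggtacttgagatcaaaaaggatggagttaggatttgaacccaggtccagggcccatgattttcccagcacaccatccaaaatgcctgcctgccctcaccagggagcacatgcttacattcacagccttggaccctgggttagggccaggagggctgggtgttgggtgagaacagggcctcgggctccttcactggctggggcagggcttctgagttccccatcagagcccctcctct

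The NAMPT stretch held 1 match to the receptor core, whose first base lies 113 bases before the start site, and 1 to the antioxidant response motif, 85 bases before it, and these matches do not overlap. It also held 3 GC boxes (GGGCGG, left in lower case). Neither the E-box nor the AP-1 motif was found in it. The stretches of NMNAT2 and QPRT held none of the 5 motifs. Members that were not called held such matches too. The NADSYN1 window had 1 antioxidant response motif and 5 GC boxes, and the receptor core was found in windows of NMNAT1, NMNAT3 and NADK, the last of which also had an E-box in another window. Among 35116 promoter windows of this length, 32.2% held the receptor core, 10.9% the antioxidant response motif, 42.6% a GC box, 6.34% the E-box and 6.57% the AP-1 motif. The NAMPT stretch was 77.2% G or C, against 56.8% for NMNAT2, 55.6% for QPRT and a median of 58.0% over all windows. The stretches shown for NMNAT2 and QPRT lie before the outermost start of the gene, whereas that of NAMPT does not. NMNAT2 and QPRT each had another window, at 46.8% and 66.4% G or C, which held none of the motifs either. A match is a string of letters and no evidence of binding.

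NNMT, which spends S-adenosylmethionine to turn nicotinamide into methylnicotinamide, had log2 signals of 10.15, 10.30, 10.23 and 10.38 in suspended cells, against 9.87, 10.02, 9.93 and 9.88 in attached cells. The groups did not overlap, and the gap between them was 0.130. The means differed by 0.340 log2 units (SE 0.059, n = 4 each, limma adjusted p = 0.00169, exact permutation p = 0.0286), and 7.17% of tested genes had a larger one in size. Within each array the NAMPT log2 signal exceeded that of NNMT by 0.778 to 1.126 in suspension and by 0.293 to 0.474 in attachment. The mean excess was 0.618 larger in suspended cells, given as a description, since the pair was chosen after its values were seen. NAMPT minus NAPRT, a pair chosen in the same way, was 3.485 to 3.805 in suspended and 2.69 to 2.97 in attached arrays. Different probe sets can respond with different slopes, so this compares changes in signal and not in transcript number.

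Of the NMNAT enzymes, which complete the dinucleotide on every route, NMNAT2 passed the test and the other two did not. NMNAT2, best known for keeping axons intact, had log2 signals of 7.16, 7.25, 7.33 and 7.13 in suspended cells, against 6.80, 7.13, 7.0 and 6.88 in attached cells. The groups were separated by only 0.001, between suspended replicate 4 and attached replicate 2. The means differed by 0.264 log2 units (SE 0.074, n = 4 each, limma adjusted p = 0.0259). It lost its call without suspended replicate 2 or 3 or attached replicate 1 or 4 (log2 difference 0.254, 0.226, 0.213 and 0.240; limma adjusted p = 0.0548, 0.0689, 0.0734 and 0.0753).

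NMNAT1, the nuclear form, had 5.38, 5.42, 5.49 and 5.28 in suspended cells, against 5.46, 5.38, 5.42 and 5.39 in attached cells. These groups overlapped, with a log2 difference of −0.022 (95% interval −0.138 to 0.095, limma adjusted p = 0.818). NMNAT1 has 5 pseudogenes in the RefSeq gene table. NMNAT3, the form assigned to mitochondria, had 6.0, 6.09, 5.93 and 6.19 in suspended cells, against 5.92, 5.91, 5.87 and 5.77 in attached cells. Its groups lay 0.006 apart without overlap, and the log2 difference of 0.180 (95% interval 0.042 to 0.318) had a limma adjusted p of 0.0663. Without suspended replicate 3 it passed the threshold (0.221, limma adjusted p = 0.0324). The NMNAT2 signal minus the NMNAT1 signal was 1.78 to 1.85 in suspended and 1.34 to 1.74 in attached arrays, and the means of that difference lay 0.285 apart. NMNAT3 minus NMNAT1 differed by 0.202 between the groups and NMNAT2 minus NMNAT3 by 0.084. These pairs too were chosen with their values known, and no test of them is given.

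QPRT, quinolinate phosphoribosyltransferase, makes nicotinic acid mononucleotide at the end of the tryptophan route. Its log2 signals were 7.13, 7.0, 7.02 and 7.18 in suspended cells, against 6.95, 6.92, 6.87 and 6.84 in attached cells. The groups lay 0.044 apart, with means 0.188 log2 units apart (SE 0.055, n = 4 each, limma adjusted p = 0.0314). With 1 array left out, the call held only without suspended replicate 2 or 3 or attached replicate 1. It was lost without suspended replicate 1 or 4 (0.171 and 0.155; limma adjusted p = 0.0796 and 0.0793) and without attached replicate 2, 3 or 4 (0.194, 0.180 and 0.170; limma adjusted p = 0.0549, 0.0830 and 0.0915). The rises of NMNAT2 and QPRT also depended on scaling. After each array was centred on the median of its tested genes, which moves the median of all genes by −0.046, they were 0.218 (limma adjusted p = 0.0599) and 0.142 (limma adjusted p = 0.0683). In that scaling 1340 genes were called higher and 2472 lower, against 1910 and 1877 as deposited, and NAMPT (0.912) and NNMT (0.294) kept their calls.

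The nicotinic acid branch had no call in either direction. NAPRT, which takes up nicotinic acid into the route, had 7.49, 7.56, 7.68 and 7.67 in suspended cells, against 7.37, 7.62, 7.47 and 7.46 in attached cells. Attached replicate 2 lay above suspended replicates 1 and 2, and the log2 difference of 0.122 had a 95% interval of −0.021 to 0.264 (limma adjusted p = 0.223). NADSYN1, the synthetase that amidates the acid dinucleotide to NAD in the last step, had 6.67, 6.65, 6.71 and 6.74 in suspended cells, against 6.82, 6.99, 6.77 and 6.87 in attached cells. It was the only member whose suspended values all lay below the attached ones, by 0.030. The log2 difference was −0.168 (95% interval −0.290 to −0.047, exact permutation p = 0.0286), and its limma adjusted p of 0.0518 just missed the threshold. That permutation p only restates the lack of overlap, which 24.8% of all tested genes share. NADSYN1 passed after the centring just described (−0.214, limma adjusted p = 0.0127) and without attached replicate 3 (−0.199, limma adjusted p = 0.0420). NAPRT minus NADSYN1 was 0.822 to 0.972 in suspended and 0.552 to 0.701 in attached arrays, again as a description.

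The remaining members did not pass. NADK, which phosphorylates NAD to NADP in the cytosol, had 7.68, 7.51, 7.60 and 7.45 in suspended cells, against 7.55, 7.52, 7.54 and 7.49 in attached cells. The suspended values spread on both sides of the attached ones, and the log2 difference was 0.034 (95% interval −0.086 to 0.155, limma adjusted p = 0.712). NMRK1, the nicotinamide riboside kinase, had 3.25, 3.35, 3.28 and 3.38 in suspended cells, against 3.20, 3.26, 3.21 and 3.21 in attached cells. It was the only member with a mean (3.27) under the lower quartile of gene means (5.28), and without a background measure so low a signal carries no statement on presence. Its log2 difference was 0.094 (95% interval −0.009 to 0.197, limma adjusted p = 0.194).

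**Figure D2:**
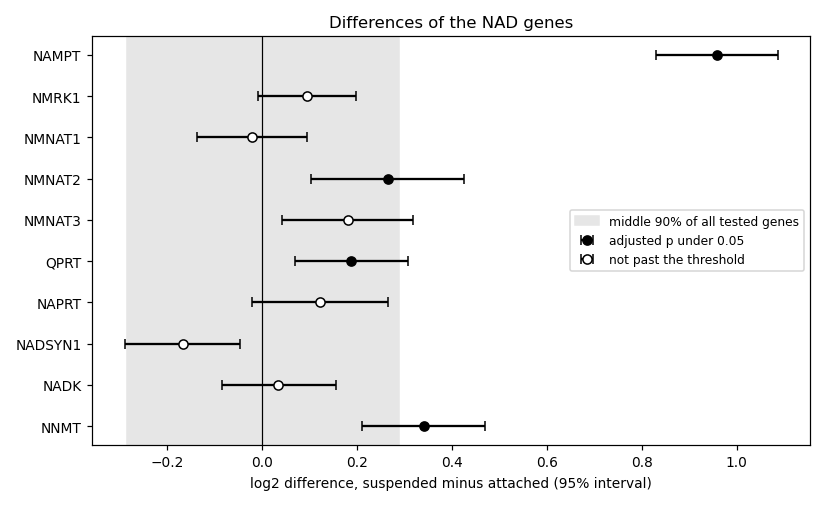
Log2 difference, suspended minus attached, of each NAD gene with its 95% interval from limma (n = 4 per group); filled points passed an adjusted p of 0.05, and the grey band holds the middle 90% of all tested genes, from −0.285 to 0.288. NAMPT (0.958) and NNMT (0.340) lie outside the band, and the other members inside it.

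**Figure D3:**
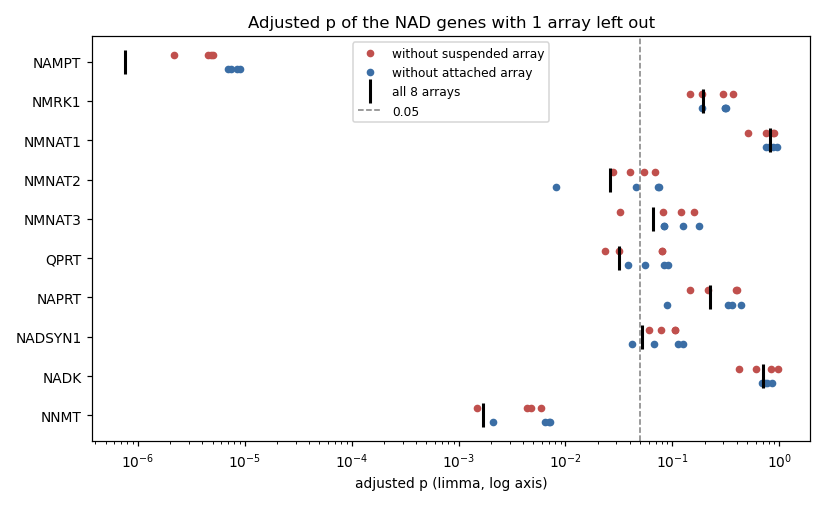
Adjusted p (log axis) of each NAD gene with all 8 arrays (black) and with 1 suspended (red) or 1 attached (blue) array left out, with the threshold of 0.05 dashed. All 8 refits stay below 0.05 for NAMPT and NNMT, 4 of 8 for NMNAT2 and 3 of 8 for QPRT.

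Over the 8 arrays the NAMPT profile was most like those of SAT1 (r = 0.9985), PLEKHA5 (0.9980) and PXK (0.9960) and most opposite to those of TENM2 (−0.9980), TGM2 (−0.9957) and CAP2 (−0.9956). NNMT was most like RALGAPB (0.9920), OSBPL9 (0.9916) and MTFR1L (0.9887) and most opposite to CEP78 (−0.9874), NDUFA8 (−0.9831) and BDNF (−0.9829). Such coefficients mostly restate the step between the groups, which all points share: 942 genes had r above 0.9 with NAMPT and 853 with NNMT.

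The genes around these enzymes were read from lists drawn up for NAD metabolism. The lists were chosen with earlier results of these data known, so their shares of calls are not those of an independent choice. Of 90 measured genes on 6 lists, 16 rose and 13 fell, 32.2% called against 20.6% of all tested genes. With only genes above the median of gene means tested, 29 of 52 listed genes were called, beside 3870 of all 9208. The list for the tryptophan to quinolinate route, which leads to QPRT, also holds enzymes of side branches. In limma 4 of its 11 genes rose and 0 fell (median log2 difference 0.070), 36.4% called against 20.6% of all genes. At an unadjusted limma p under 0.05, 4 of them were higher and 1, IDO2, was lower, again with no background share beside the count. Without attached replicate 1 or attached replicate 3 the rises numbered 2. Centring over the tested genes left 2 higher and 1 lower, and leaving out suspended replicate 4 gave 3 higher and 1 lower, IDO2 being the gene that fell in both. TDO2, the first enzyme of the route, averaged 8.22 ± 0.11 in suspended and 5.59 ± 0.04 in attached cells, and KYNU 8.96 ± 0.06 and 7.47 ± 0.06 (mean log2 signal ± SD, n = 4). HAAO, which makes the direct precursor of quinolinate, differed by 0.10 (limma adjusted p = 0.307), KMO by 0.02 (0.805), and ACMSD, which diverts that precursor away from quinolinate, by 0.00 (0.977). KMO (mean 4.7 in both groups) and ACMSD (4.18 in suspended and 4.17 in attached cells) lie under the lower quartile of gene means (5.28). IDO2 (4.33 and 4.46) does as well. At so low a signal, the lack of a difference for KMO and ACMSD carries no statement on change. The other rises were IDO1 (0.205), whose means of 4.64 and 4.43 lie under the lower quartile of gene means (5.28), where signal is low, and KYAT3 (0.223). KYAT3 is an aminotransferase of a side branch that leads away from quinolinate, as are KYAT1 and AADAT, which were not called. Leaving out suspended replicate 1, attached replicate 1 or attached replicate 3 ended the IDO1 call, and KYAT3 stayed called only when suspended replicate 1 was left out. Over the 8 refits IDO1 differed by 0.163 to 0.233 and KYAT3 by 0.177 to 0.287. Neither was called after centring on tested genes (0.159, limma adjusted p = 0.0703, and 0.177, limma adjusted p = 0.0793).

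**Figure D4:**
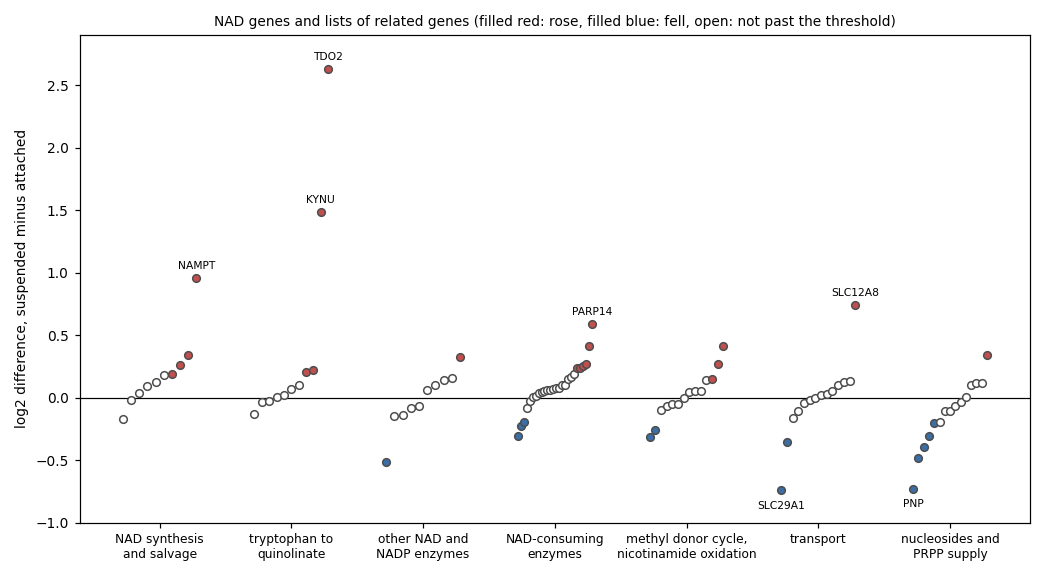
Log2 difference, suspended minus attached, of every measured gene of the NAD set (left) and of the 6 related lists; filled red points rose, filled blue points fell and open points did not pass an adjusted p of 0.05. NAMPT, TDO2, KYNU, PARP14 and SLC12A8 stand out above, and SLC29A1 and PNP below.

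Among 26 NAD-consuming enzymes 6 rose and 3 fell (median log2 difference 0.074), 34.6% called against 20.6% of all tested genes, of which 10.4% rose and 10.2% fell. PARP14, a mono-ADP-ribosyltransferase of the interferon response, rose by 0.590 on the log2 scale (7.14 ± 0.05 in suspended and 6.55 ± 0.06 in attached cells, limma adjusted p = 8.28e-06), and TIPARP, a known aryl hydrocarbon receptor target, by 0.417. The tankyrases TNKS (0.241) and TNKS2 (0.257), the cytoplasmic deacetylase SIRT2 (0.237) and the mitochondrial SIRT3 (0.269) rose as well. The nuclear deacetylase SIRT1 (−0.224), the DNA damage enzyme PARP2 (−0.308) and PARP12 (−0.196) fell. Leaving out attached replicate 1, 3 or 4 ended the SIRT3 call, and PARP12 stayed called only when suspended replicate 1 or 2 was left out. Over the 8 refits SIRT3 differed by 0.202 to 0.306 and PARP12 by −0.223 to −0.137. PARP1, the main DNA damage PARP, differed by −0.03 (limma adjusted p = 0.720), and the NAD glycohydrolases CD38 by 0.06 (0.535), BST1 by 0.10 (0.220) and SARM1 by 0.17 (0.0744). The CD38 means, 4.33 in suspended and 4.27 in attached cells, lie under the lower quartile of gene means (5.28), where signal is low.

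Of the methyl donor and nicotinamide oxidation list 3 of 14 genes rose and 2 fell (median log2 difference 0.022), 35.7% called against the same background. MAT2A, the enzyme that makes S-adenosylmethionine, rose by 0.149. With single arrays left out its call held only in the refits that dropped suspended replicate 1 or 3, within values of 0.133 to 0.163, and it was lost after the same centring (0.103, limma adjusted p = 0.172). AHCYL1 (0.266) and AHCYL2 (0.416), relatives of the S-adenosylhomocysteine hydrolase, rose, whereas the hydrolase gene AHCY itself differed by −0.10 (limma adjusted p = 0.201). MTRR (−0.255), which reactivates methionine synthase, and AOX1 (−0.318), the aldehyde oxidase that oxidises methylnicotinamide, the product of NNMT, fell. AOX1 averaged 5.26 ± 0.10 in suspended and 5.58 ± 0.09 in attached cells (limma adjusted p = 0.00466).

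Of 14 carriers of NAD and its precursors 1 rose and 2 fell (median log2 difference 0.008). This share, 21.4%, is near the 20.6% called among all genes and is no result about carriers as a group. SLC12A8, described in mice as a carrier of nicotinamide mononucleotide, rose 1.67-fold (7.93 ± 0.09 in suspended and 7.19 ± 0.10 in attached cells, limma adjusted p = 1.14e-05). SLC29A1, the equilibrative nucleoside transporter ENT1, was 1.67-fold lower (8.73 ± 0.11 and 9.47 ± 0.02, limma adjusted p = 5.89e-06), and the tryptophan and leucine carrier SLC7A5 fell by 0.355 on the log2 scale. SLC25A51, the mitochondrial NAD carrier, differed by −0.11 (limma adjusted p = 0.25).

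Breakdown to nucleosides and the supply of phosphoribosyl pyrophosphate, the sugar donor that NAMPT, NAPRT and QPRT use, had 5 falls and 1 rise among 15 genes (median log2 difference −0.103), 40.0% called against 20.6% of all genes, of which 10.2% fell. PNP, the purine nucleoside phosphorylase that also splits nicotinamide riboside, was 1.66-fold lower (8.29 ± 0.06 in suspended and 9.01 ± 0.03 in attached cells, limma adjusted p = 1.13e-06). The other falls, in log2, were the ectonucleotide pyrophosphatase ENPP1 (−0.483), the phosphoribosyl pyrophosphate synthetase PRPS1 (−0.394), the ADP-ribose hydrolase NUDT5 (−0.310) and the cytosolic nucleotidase NT5C2 (−0.202). Dropping suspended replicate 3 or 4, or attached replicate 1 or 4, ended the NT5C2 call, with values of −0.234 to −0.167 in the 8 refits. NT5E, the surface nucleotidase CD73, rose by 0.342. Of 10 other NAD and NADP enzymes 1 rose and 1 fell, a share of 20.0% that is near the background. NNT, the mitochondrial transhydrogenase, rose by 0.322 (limma adjusted p = 4.62e-04), and NOCT, an NADP phosphatase, fell by 0.514 (limma adjusted p = 2.27e-04). NADK2, the mitochondrial NAD kinase, differed by −0.07 (limma adjusted p = 0.551), and NMRK2, the second riboside kinase, by 0.14 (0.139).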

How the data were processed

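Values are the log2 signals that the authors deposited, 1 table of 33297 probe sets by 8 arrays; the scale was inferred from array maxima of 13.69 to 13.74. Partek was used, per the submitters' processing notes; its version and the earlier steps (background, normalization, summary per probe set) were not given in the sources used here. The labels name a labelling kit sold for small RNA, so how these arrays were labelled is uncertain. Without a detection measure, folds are ratios of signals.

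Probe sets with 1 gene symbol were kept, 1754 with several and 12083 with none were left out, and the brightest stood for a gene, leaving 18417 genes. Groups were compared across all genes with limma 3.58.1 in R 4.3.3 (lmFit, eBayes, no covariate, two-sided), adjusted by Benjamini-Hochberg at 0.05. Intervals are 95% from the moderated SE, and n is 4 per group. Single values had exact permutation tests (scipy 1.17.1). For 6 pairs of members, chosen after their values were seen, differences within arrays are described and no test is given. The procedure was tested on simulated data. Alternatives were median centring, quantile normalization, the replicate number as a block, filters on low signal, trended robust variances, array weights, averaged probe sets and leaving out each array. Centring on tested genes was added after seeing the data.

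Members and lists were chosen with earlier results of these data known. Every member is named, with called genes of each list and others whose role is described, and for likeness the 3 highest and 3 lowest correlations of the 2 members with the smallest adjusted p. Of the listed genes, CBS, INMT, SLC16A1 and NT5C1B are not analysed here.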

Additional observations from a re-analysis of the deposited data

Results flagged for a closer look

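In 7 of 80 groups of 4 arrays, over the NAD genes and the called genes of the related lists, 1 array stood far from the others by Dixon's ratio, which chance gives in about 1 of 20 groups. None of the 7 belongs to a NAD gene itself. In suspended cells AHCYL1 had 9.81 in replicate 3 against 9.87 in the other arrays, AHCYL2 7.64 in replicate 3 against 7.55 to 7.56, and ENPP1 7.86 in replicate 1 against 8.05 to 8.09 (log2 signals). In attached cells MAT2A had 11.78 in replicate 4 against 11.75 to 11.76, MTRR 9.17 in replicate 2 against 9.25 to 9.27, PNP 9.06 in replicate 2 against 9.0, and SLC12A8 7.34 in replicate 2 against 7.12 to 7.16. Without that array MAT2A was not called (0.154, limma adjusted p = 0.0613), and the other 6 genes were.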

How the results depend on the processing

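NAMPT and NNMT kept their direction and call under all 17 alternatives (log2 difference 0.912 to 1.01 and 0.294 to 0.389). Leaving out 1 array gave 0.213 to 0.323 for NMNAT2, 0.155 to 0.217 for QPRT, −0.199 to −0.126 for NADSYN1, 0.135 to 0.221 for NMNAT3, −0.055 to 0.016 for NMNAT1 and −0.005 to 0.071 for NADK, with NMNAT1 turning positive without suspended replicate 4 and NADK negative without suspended replicate 1. Between 2 and 4 NAD genes were then called, against 4 with all arrays. NADSYN1 was called after median centring (−0.191), quantile normalization (−0.174), centring on tested genes (−0.214) and, with fewer genes tested, above the 25th percentile or the median of gene means (−0.168 for both), where NMNAT3 was called above the 25th percentile (0.180). After centring on tested genes NMNAT2 (0.218) and QPRT (0.142) were not called and NADK was −0.012; the cause was not tested. With the replicate number as a block, QPRT was not called (0.188, limma adjusted p = 0.0672), 3 NAD genes and 3022 of all genes were called, and SIRT3, PARP12, NT5C2 and MAT2A of the related lists were not; same-numbered arrays did not deviate together (r from −0.198 to 0.0416), and no array correlated best with its own number. NT5C2 and PARP12 were not called after quantile normalization, nor MAT2A and KYAT3 after median centring. For the 29 called related genes, 450 values under an alternative kept direction and call and 40 lost the call. Filters on low signal left no value for NMRK1, nor for NMNAT1 and NMNAT3 above the median. Without a background measure, low signals such as that of NMRK1 set no lower limit on a change.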
